A study of Mus musculus with 13 samples.

Results

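The COP9 signalosome is a protein complex whose subunits are encoded by 10 mouse genes, all of them examined here: Gps1, Cops2, Cops3, Cops4, Cops5, Cops6, the alternative pair Cops7a and Cops7b, Cops8 and Cops9. They were found by symbol among the 22656 genes of the deposited table, and all 10 passed the minimum of a mean of 10 normalised counts over the libraries, which left 12403 genes for testing. Cops9 was chosen by its normalised counts in these 13 libraries, for its pattern between the groups, and the other 9 genes are the rest of its complex. The values of Cops9 between the groups are therefore a description without a test. Tumour cells were taken from the lungs of 2 kinds of host, APOE2 knock-in mice (8 libraries) and APOE3 knock-in mice (5 libraries), which carry these human alleles. Every mouse had been injected in the tail vein with B16F10-TR-shApoe, a derivative of the mouse melanoma line B16F10 named for a short hairpin directed at Apoe, so the hairpin is common to both groups and the allele differs in the host. Lungs were taken on day 15 and digested, and living GFP-positive, CD45-negative cells were sorted. RNA was read with a kit that primes at the poly(A) tail, so each read marks a transcript end. The age and sex of the mice are not given in the sources used here, nor whether each library came from 1 mouse, so the tests measure the spread between these libraries, which may in part be technical.

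As background, the COP9 signalosome removes the ubiquitin-like protein NEDD8 from cullins, the scaffolds of the cullin-RING ubiquitin ligases. Attachment of NEDD8 activates a cullin and its removal lets the ligase exchange its substrate receptor, so the complex is needed for ligases that control the cell cycle, DNA repair and stress responses. Its large subunits carry PCI or MPN domains and resemble those of the proteasome lid and of the translation factor eIF3. Cops5 holds the metalloprotease centre. Cops9, also called CSNAP, is a very small acidic protein without either domain.

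Recovered reads ranged from 7080308 to 13039989 per library, with reads in 14026 to 17018 genes. The melanocyte markers Dct, Tyr, Tyrp1, Pmel, Mlana, Mitf and Sox10 had reads in every library, which fits the labelled cell type, and summed to between 26018 and 51140 CPM, that is, normalised counts scaled to a common total per library. Of 12403 genes, 98 had a limma adjusted p under 0.05 between the genotypes.

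Cops9 was higher in APOE2 hosts. In the 8 APOE2 libraries its lowest value was 9105 normalised counts, its median 11184 and its highest 15444. In APOE3 replicates 1 to 5 it was 7952, 7974, 6974, 8621 and 6556. The groups did not overlap, all APOE2 libraries being higher, with APOE2 replicate 4 and APOE3 replicate 4 closest to each other. The means were 11333 ± 1951 (SD, n = 8) and 7615 ± 835 (SD, n = 5), a 1.49-fold ratio. The log2 fold change was 0.56 ± 0.12 (SE, limma, 95% interval 0.32 to 0.81). Because Cops9 was picked by these same values, the SE and interval are descriptions and not a test. The depth behind these values was 5667 to 22663 reads per library, so counting alone gives a coefficient of variation of 0.979%, against 16.5% between libraries of 1 genotype. Among 12403 genes tested, 7.5% had a log2 fold change at least as large as that of Cops9. As a share of all normalised counts of a library, Cops9 made up 1085 to 1738 CPM in APOE2 and 800.4 to 1040 in APOE3, again without overlap. The highest library, APOE2 replicate 1, was also the deepest, and without it the log2 fold change was 0.50. Leaving out any 1 of the 13 libraries gave values from 0.50 to 0.61.

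**Figure D1:**
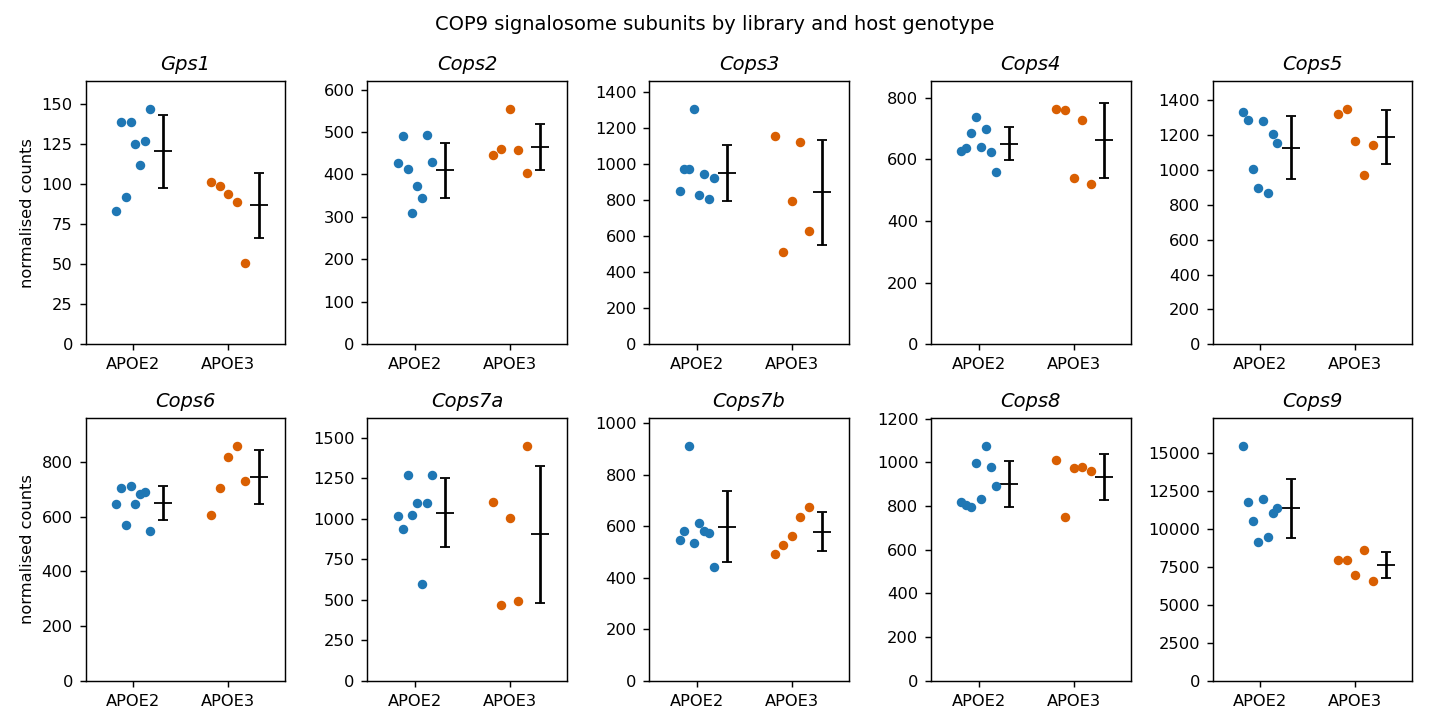
Normalised counts of each subunit, 1 panel per gene with its own axis from 0. Points are libraries in order of replicate number, 8 from APOE2 (blue) and 5 from APOE3 (orange) hosts, and the black dash with bars is the mean ± SD. In the Cops9 panel the APOE2 points start at 9105 and the APOE3 points end at 8621, whereas the points of the 2 groups overlap in the other 9 panels.

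Cops9 (ENSMUSG00000073616) lies on mouse chromosome 1 at chr1:92637145-92641985 on the minus strand in GRCm38, from the GENCODE M21 annotation. Its exons overlap those of no other annotated gene, and no transcript of another gene matched a coding transcript of Cops9 over 100 bases or more at 90% identity or more. Within 500000 bases on either side, 17 other genes were in the table and 8 were tested. By limma, adjusted p was under 0.05 for 0 of these 8 (0.79% of all genes) and unadjusted p for 0 (14.2% of all genes), so with 8 genes these counts are near the background. Among these 8 Otos starts closest to Cops9 and averaged 36.5 ± 22.4 normalised counts (SD, n = 8) in APOE2 hosts against 28.6 ± 23.6 (SD, n = 5) in APOE3 hosts. Ndufa10, for a respiratory complex I subunit, had 1677 ± 225 and 1942 ± 336 (SD).

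The start region of Cops9 is shown because this gene separates the groups and because its letters hold a short run found in several other subunits. The sequence is that of RefSeq on GRCm38.p6, chr1:92641956-92642235, minus strand, from 250 bases before to 30 bases after the start site at 92641985, and capitals mark the core CCGGAAG of ETS-family binding sites.
Cops9: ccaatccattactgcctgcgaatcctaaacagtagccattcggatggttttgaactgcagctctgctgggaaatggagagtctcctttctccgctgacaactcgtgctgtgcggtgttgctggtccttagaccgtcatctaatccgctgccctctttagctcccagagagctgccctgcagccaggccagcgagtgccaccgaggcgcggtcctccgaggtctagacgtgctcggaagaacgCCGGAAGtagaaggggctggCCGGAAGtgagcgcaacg
The core begins at positions −8 and 13, counted from 1 at the start site. Among 9 subunits with a RefSeq window (250 bases before to 50 after the start), 6 held CCGGAAG on 1 strand or the other (CTTCCGG on the reverse), against 9.93% of 27025 genes. Cops5 had no window. The 27025 genes, which also serve as all genes for the letters below, were not limited to those tested here. Shares among tested genes alone were not computed. The 5 other subunits with the core are given as stretches of 27 bases from the same source, with the same marking.
Gps1, chr11:120784263-120784289, plus strand: acgcgccgccCCGGAAGcgaacgtcgc
Cops2, chr2:125859075-125859101, minus strand: cctggagagaCCGGAAGacgaggagac
Cops3, chr11:59839907-59839933, minus strand: ggggacctgaCTTCCGGcgactagcgg
Cops7a, chr6:124965515-124965541, minus strand: ggaagtacggCCGGAAGctggccatag
Cops8, chr1:90603287-90603313, plus strand: cagccgaaccCTTCCGGatcgcagggc
Between the genotypes the normalised counts of these 5 genes overlapped. Further letters were searched on both strands in the same windows. GGGCGG was in 5 of the 9 and 38.2% of all genes, CCAAT in 2 and 41.1%, CACGTG in 2 and 8.09%, TGACTCA in 1 and 5.95%, and TGACGTCA in 0 and 2.03%. A match is a description of the letters, not a measured binding site.

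In the catalytic pair the genotypes overlapped. Cops5 (ENSMUSG00000025917), the metalloprotease that cleaves NEDD8 from cullins, had 869, 1182 and 1335 normalised counts as the lowest, median and highest of the APOE2 libraries. In APOE3 replicates 1 to 5 it had 1324, 1349, 1165, 969.6 and 1145. Low and high libraries were found in both groups. Its log2 fold change was −0.083, with a 95% interval from −0.35 to 0.18 and a limma adjusted p of 0.816. Cops6 (ENSMUSG00000019494), the MPN partner without its own active site, had 650.2 ± 61.5 (SD, n = 8) and 743 ± 98.3 normalised counts (SD, n = 5), with ranges of 548 to 711 and 607 to 858. Its log2 fold change was −0.19 with an interval from −0.44 to 0.063 (limma adjusted p = 0.502). All 8 APOE2 libraries were below the APOE3 mean of Cops6, which is the opposite side from Cops9, but the ranges overlapped.

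The PCI subunits form the horseshoe that holds the complex together. Gps1 (CSN1, ENSMUSG00000025156) had the largest positive log2 fold change after Cops9, at 0.49, with an interval from −0.016 to 0.99 and a limma adjusted p of 0.369. It was the least read subunit, with 44 to 160 reads per library. Its APOE2 libraries had 83.1, 126 and 146 normalised counts as lowest, median and highest, and APOE3 replicates 1 to 5 had 101, 98.3, 93.7, 88.5 and 50.9. The low value of APOE3 replicate 5 carried part of this difference, since leaving it out brought the log2 fold change to 0.31. A processed copy, Gm9816, matches 1414 bases of Gps1 at 99.6% identity and averaged 0.558 normalised counts, and how reads shared by the 2 were assigned is not given in the sources used here.

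Cops2 (ENSMUSG00000027206), the subunit that grips the cullin, averaged 409.6 ± 65.1 normalised counts (SD, n = 8) in APOE2 hosts against 464 ± 54.9 (SD, n = 5) in APOE3 hosts, with ranges of 309 to 493 and 404 to 554. Its log2 fold change was −0.19 with an interval from −0.49 to 0.11 (limma adjusted p = 0.581). Cops4 (ENSMUSG00000035297), which contacts the ligase and relays its presence to the active site, had 651 ± 54.2 and 662 ± 122 (SD), with ranges of 559 to 736 and 519 to 763. Its log2 fold change was −0.0085 with an interval from −0.27 to 0.26 (limma adjusted p = 0.986). Cops8 (ENSMUSG00000034432), the smallest PCI subunit, had 899 ± 105 and 934 ± 106 (SD), with ranges of 796 to 1075 and 748 to 1010.2. Its log2 fold change was −0.054 with an interval from −0.30 to 0.19 (limma adjusted p = 0.879). In all 3 subunits the groups overlapped. The sign of Cops4 was positive under TMM scaling, at 0.012. The annotated exons of Cops2, Cops3, Cops5 and Cops6 overlap genes on the opposite strand (Galk2; Gm16062 and Nt5m; Cspp1; Mcm7), and whether the counting used strand is not given in the sources used here, so reads of such pairs may not have been told apart.

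Cops3 (ENSMUSG00000019373) and Cops7a (ENSMUSG00000030127) differed most between libraries of 1 genotype. Cops3 had 1157, 509.6, 795, 1125 and 629 normalised counts in APOE3 replicates 1 to 5, and 809 to 1305 in APOE2. Cops7a had 1103, 468, 1008, 490.5 and 1451 in APOE3 replicates 1 to 5, and 599.5 to 1270 in APOE2. Both groups of Cops7a thus held libraries near the low and near the high end. Replicate 2 was low and replicate 1 high in both genes, whereas replicates 4 and 5 stood on opposite sides. The coefficient of variation within genotypes was 23.7% for Cops3 and 31.0% for Cops7a, beside medians of 16.7% and 16.4% over genes with means within a factor of 2 of theirs. The log2 fold changes of 0.23 for Cops3 (interval −0.12 to 0.58, limma adjusted p = 0.565) and 0.31 for Cops7a (interval −0.15 to 0.77, adjusted p = 0.558) did not pass the test. Without APOE3 replicate 2, the log2 fold change was 0.067 for Cops3 and 0.11 for Cops7a.

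Cops7a and Cops7b occupy the same place in the complex in turn. Cops7b (ENSMUSG00000026240) had 599 ± 137 (SD, n = 8) and 579 ± 75.9 normalised counts (SD, n = 5), with ranges of 442 to 913 and 492 to 677. Its log2 fold change was 0.03 (interval −0.28 to 0.33, limma adjusted p = 0.952), and it was −0.011 when all libraries were scaled to equal totals and −0.061 without APOE2 replicate 3. On the log2 scale Cops7a exceeded Cops7b by 0.044 to 1.52 in APOE2 libraries and by −0.37 to 1.16 in APOE3 libraries. The balance of the pair therefore ranged widely in both genotypes, and the ranges overlapped. A stretch near the end of the longest Cops7b transcript (bases 4865 to 5055 of 5383) matched transcripts of 47 other genes, so reads from it may have been counted for other genes or left out.

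**Figure D2:**
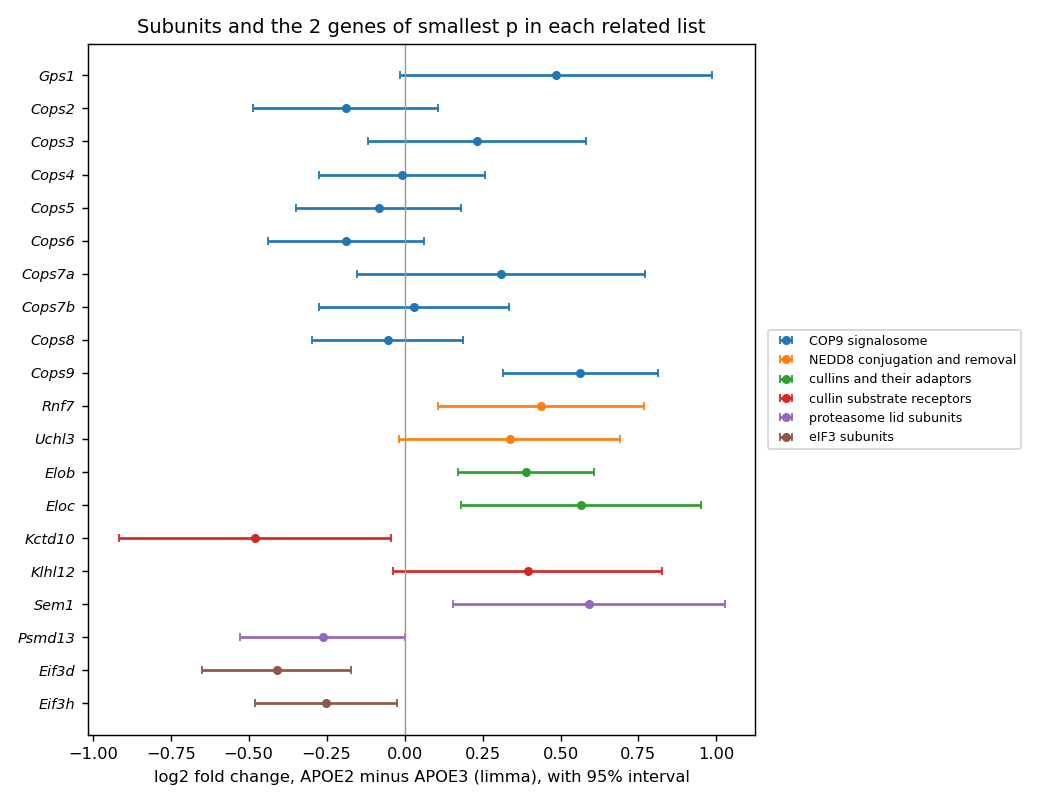
Log2 fold changes (APOE2 minus APOE3) from limma with 95% intervals, for the 10 subunits and for the 2 genes with the smallest unadjusted p in each of 5 related lists. Cops9 stands at 0.56 as a description, and the intervals of the other 9 subunits cross 0.

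Of the 10 subunits 1, Cops9, was past the adjusted threshold in limma, against 0.79% of all genes tested (0.411% higher and 0.379% lower), and nothing is read from that count since Cops9 was picked. Of the other 9, 0 were past the threshold in limma, 0 had an unadjusted p under 0.05, and edgeR and DESeq2 on the recovered reads called 0, against 1.11% and 2.51% of all genes by those tools. The background share at an unadjusted p under 0.05 was 14.2% (7.51% higher and 6.71% lower). Groups that did not overlap were found for Cops9, and nothing is read from that since Cops9 was picked for its pattern. They were found for 0 of the other 9 subunits, against 0.984% of all genes (0.476% with APOE2 above and 0.508% with APOE2 below). For 9 genes that count is near the background. The median log2 fold change was 0.011 over the 10 subunits and −0.0085 over the other 9, beside 0.00037 over all genes tested. By sign, 5 were positive and 5 negative, where 50.1% of all genes were positive.

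Cops9 was also set against the rest of its complex. The mean log2 value of the other 9 subunits was 9.25 ± 0.061 (SD, n = 8) in APOE2 hosts against 9.19 ± 0.11 (SD, n = 5) in APOE3 hosts, 0.059 apart, and their summed counts were 6449 ± 255 and 6407 ± 499.9 (SD). Measured against that mean within each library, Cops9 was higher by 4.20 ± 0.25 log2 units (SD, n = 8) in APOE2 hosts against 3.70 ± 0.19 (SD, n = 5) in APOE3 hosts, which differ by 0.50. By this relative measure the groups overlapped, since APOE2 replicate 4 (3.865) stood below APOE3 replicates 4 (3.870) and 2 (3.92). Set against each subunit singly, the log2 ratio of Cops9 separated the genotypes for 2 of the 9, Cops2 and Cops5. Every such ratio contains Cops9, which was picked for its pattern between the groups, so nothing is read from that count. Divided by the length of the longest transcript, Cops9 had 15166 normalised counts per kilobase and the others 53.6 (Gps1) to 679 (Cops5). Reads here come from transcript ends, so this division is a convention rather than a correction.

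**Figure D3:**
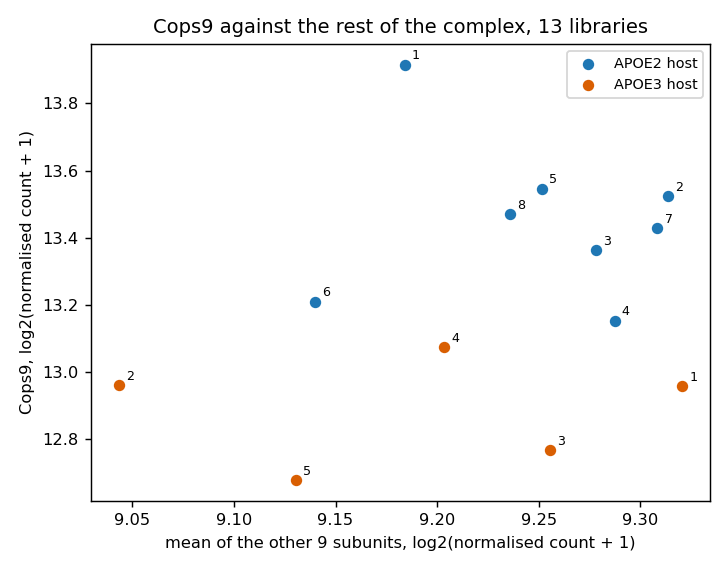
Each point is a library, labelled by replicate number, with the mean of the other 9 subunits on the horizontal axis and Cops9 on the vertical axis, both as log2(normalised count + 1). Genotypes separate along the Cops9 axis and overlap along the other, where APOE2 averages 9.25 and APOE3 9.19.

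Pooled over the genotypes, the correlations between subunits had both signs. After each genotype's mean had been subtracted, Pearson's r over 13 libraries was positive for 21 of 45 pairs and had a median of −0.042, with 3 pairs at 0.5 or above and 4 at −0.5 or below. The highest value joined Cops9 and Cops5 (0.63), followed by Cops2 with Cops5 (0.55) and Cops3 with Cops8 (0.54). In APOE2, replicate 1 had the highest Cops9 (15444 normalised counts) and the highest Cops5 (1335). In APOE3, replicate 4 had the highest Cops9 (8621) and the lowest Cops5 (969.6). The r within each genotype alone was not computed, so the pooled value may not hold in both. The lowest values were those of Cops4 with Cops7a (−0.62), Cops5 with Cops8 (−0.60), Gps1 with Cops7b (−0.60) and Cops8 with Cops9 (−0.50). All points share libraries and scaling factors, and these values are descriptions without a test.

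**Figure D4:**
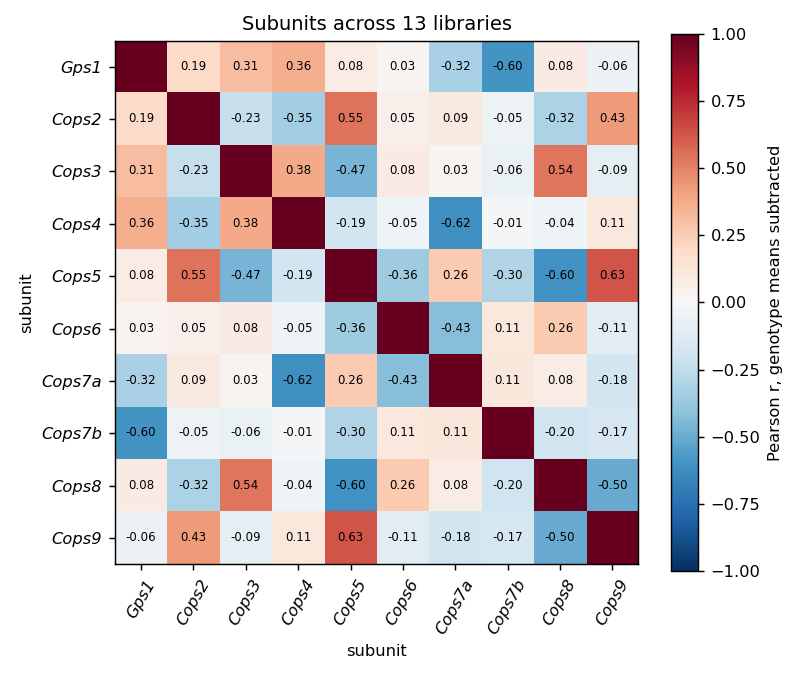
Pearson's r between subunits over 13 libraries after subtraction of genotype means, from −1 (blue) to 1 (red). Most cells are pale, Cops9 with Cops5 has the highest value (0.63) and Cops4 with Cops7a the lowest (−0.62).

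Genes outside the complex were ranked by likeness to Cops9. Among 9670 such genes whose mean reached 50 normalised counts, the 5 with the highest r over 13 libraries after subtraction of genotype means included Uqcr11, a subunit of respiratory complex III (r = 0.93, Spearman's rho 0.91), the ribosomal protein gene Rps29 (0.91, rho 0.86), the splicing factor gene Son (0.87, rho 0.76) and Arpc5l, which encodes a subunit of the actin-branching Arp2/3 complex (0.87, rho 0.89). Without the 2 libraries farthest from the median of Cops9 (APOE2 replicates 1 and 4) the r of these 4 genes was 0.92, 0.83, 0.68 and 0.72. Without subtraction, where the difference between the genotypes enters, the first 5 included Uqcr11 (0.96), Rps29 (0.95), Tmem258 (0.94), an oligosaccharyltransferase subunit, and Son (0.94). Uqcr11 averaged 3048 ± 697 normalised counts (SD, n = 8) in APOE2 hosts against 2088 ± 219 (SD, n = 5) in APOE3 hosts, without overlap, with 0.52 as its log2 fold change (limma adjusted p = 0.0598). Tmem258 had 4600 ± 541 and 2934 ± 201 (SD). The Tmem258 log2 fold change was 0.64, with a limma adjusted p of 0.00611. Under other fits that adjusted p was 0.0908 without the limma trend and 0.251 with the epithelial marker mean as a covariate. After subtraction of genotype means Cops5 was the closest subunit with both genotypes pooled (r = 0.63) and ranked behind 187 of the 9670 genes. Without subtraction the closest subunit was Gps1 (r = 0.47), and Cops5 had an r of 0.20. These genes were ranked for their likeness to Cops9, so these values support nothing further.

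Cops9 also belongs to the genes with short and abundant transcripts, which were more often positive than other genes. Its longest transcript in the GENCODE basic set has 653 bases, whereas those of the other subunits have 1646 (Cops3) to 5383 (Cops7b). Among 984 tested genes with transcripts of up to 1000 bases, 64.1% had a positive log2 fold change, the median was 0.18, and 2.34% were called higher in APOE2 by limma. Among 4103 genes with transcripts over 4000 bases, 44.9% were positive, the median was −0.029 and 0.195% were called higher. Among 218 genes whose mean reached 5000 normalised counts, 71.1% were positive and 5.96% were called higher. In the 67 genes that were both short and that abundant, 86.6% were positive, with a median of 0.30, and 11.9% were called higher. Once the trends on length and GC content had been taken out of every library, the log2 fold change of Cops9 was 0.41 in place of 0.56.

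**Figure D5:**
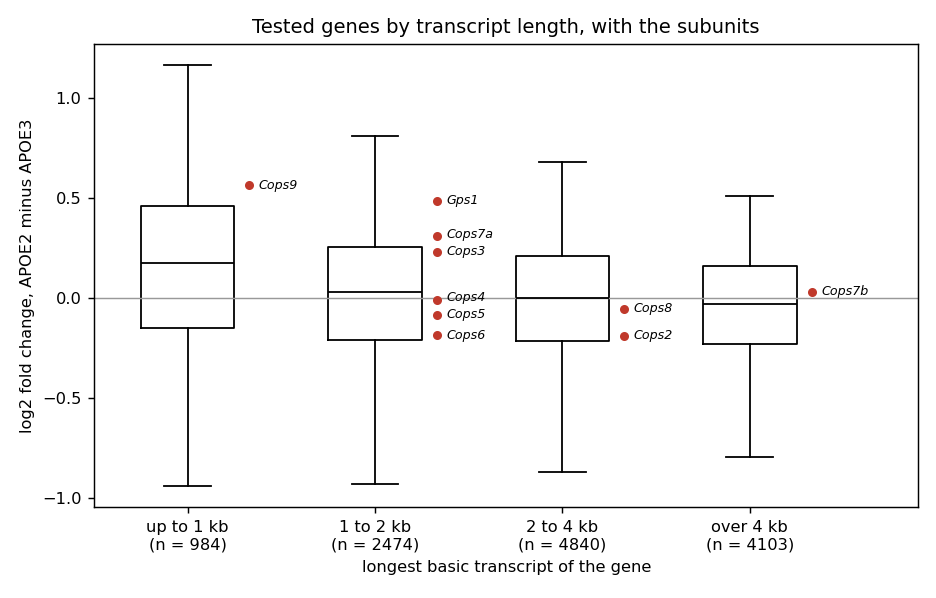
Log2 fold changes (APOE2 minus APOE3) of tested genes in 4 classes of transcript length. Boxes show the quartiles with the median as a line, whiskers run from the 5th to the 95th percentile, and red points are the subunits. The median falls from 0.18 in the shortest class, which holds Cops9, to −0.029 in the longest, which holds Cops7b.

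Markers of other lung cells differed between the genotypes too. Lung epithelium markers (15 of 15 in the table) summed to 99.2 to 499 CPM in APOE2 and 439 to 2603 in APOE3. Endothelial markers (14 of 14) summed to 88.1 to 135 and 129 to 259, fibroblast and smooth muscle markers (13 of 13) to 25.1 to 79.9 and 55.4 to 337, and leukocyte markers (21 of 21) to 59.5 to 304 and 264 to 1499, of which Cd3d, Cd8a and Cd4 had no read in at least 1 whole genotype. Erythroid markers (5 of 7 in the table) summed to 4.80 to 22.0 and 2.84 to 26.8. Among the 3 erythroid genes tested, 0 had a negative log2 fold change and 0 were called by limma. Of 41 tested genes in the epithelial, endothelial, fibroblast and leukocyte lists, 40 had a negative log2 fold change and 11 were called lower in APOE2 by limma, where 0.379% of all genes were called lower and 50.1% were positive. Without the limma trend, or with the epithelial marker mean as a covariate, 0 genes of the whole table were called lower. Their share is small beside that of the melanocyte markers, which summed to 35233 to 51140 in APOE2 and 26018 to 37681 in APOE3. Of the 7 melanocyte markers 3 had a negative log2 fold change and 0 were called in either direction by limma. With the epithelial marker mean as a covariate the log2 fold change of Cops9 was 0.68. The epithelial sum itself differed between the genotypes, so this fit cannot tell genotype and epithelial share apart. After subtraction of genotype means the r of Cops9 was 0.089 with the epithelial sum and −0.41 with the endothelial sum. It was 0.059 with the fibroblast and smooth muscle sum and 0.13 with the leukocyte sum. Without subtraction these 4 values were −0.60, −0.80, −0.55 and −0.57. With the melanocyte sum, r after subtraction was 0.75 (Spearman's rho 0.77) over 13 libraries, and 0.62 without APOE2 replicate 1 and APOE3 replicate 2. The r of Cops9 with the melanocyte sum without subtraction was 0.90, farther from 0 than those 4 values. In these bulk libraries fewer cells of a type and less RNA per cell cannot be told apart. The part of the melanocyte share, or of other lung cells, in the difference of Cops9 was not tested.

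The genes around the complex were examined in 5 lists, 72 genes in all, of which 71 were tested and Eif3j2 was below the minimum. In limma 0 of the 71 were past the adjusted threshold, edgeR called 0 and DESeq2 called 2, Elob and Eif3d. Over all genes tested these tools called 0.79%, 1.11% and 2.51%, so the counts in the lists are near the background. At an unadjusted p under 0.05 there were 5 higher and 4 lower genes, 12.7% of the 71 beside 14.2% of all genes tested.

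Nedd8, which encodes the protein that the complex removes, had 1987 ± 134 normalised counts (SD, n = 8) and 2018 ± 212 (SD, n = 5), with a log2 fold change of −0.019 and an interval from −0.22 to 0.18. In the list of 19 genes for NEDD8 conjugation and removal, which includes the activating and conjugating enzymes, the cullin exchange factor Cand1 and the second NEDD8 protease Senp8, 9 log2 fold changes were positive and 10 negative, with a median of −0.0022. The gene with the smallest p was Rnf7, the RING subunit that pairs with Cul5, with 1277 ± 253 and 949.6 ± 221 normalised counts (SD) and with 0.44 as its log2 fold change (limma adjusted p = 0.210). It was followed by Uchl3, a hydrolase that can mature NEDD8, at 0.34 (adjusted p = 0.378). Without APOE3 replicate 2, Rnf7 was at 0.27 and Uchl3 at 0.13.

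The 8 cullins, the substrates of the complex, had log2 fold changes from −0.22 (Cul7) to 0.15 (Cul2). By limma, 0 of the 8 had an unadjusted p under 0.05, against 14.2% of all genes tested. With 8 genes this count is near the background. Of the 4 adaptors of the cullins, Ddb1 was at 0.11 and Skp1a at −0.23, and Elob and Eloc were at larger values. Elob, which links Cul2 and Cul5 to their receptors, had 3177, 3827 and 4456 normalised counts as the lowest, median and highest of the APOE2 libraries, and 2516 to 3153 in APOE3. No library of 1 group fell within the range of the other. Such a separation was found for 1 of the 71 related genes tested, against 0.984% of all genes (0.476% with APOE2 above). That count is near the background. The log2 fold change of Elob was 0.39 with an interval from 0.17 to 0.61, and its limma adjusted p of 0.0844 missed the threshold, while DESeq2 gave an adjusted p of 0.0122 (range over all alternatives 0.0122 to 0.678). Elob has a short transcript like Cops9, of 537 bases, and its exons overlap Srrm2 on the opposite strand. Its partner Eloc had 1733 ± 244 and 1245 ± 480 (SD), with 0.57 as the log2 fold change and a limma adjusted p of 0.163, which became 0.0412 without APOE3 replicate 1 (range over all alternatives 0.0412 to 0.891). In the list of 18 substrate receptors 9 were positive and 9 negative. Kctd10, a receptor of Cul3, was at −0.48 (limma adjusted p = 0.306) and Klhl12, another, at 0.39 (adjusted p = 0.396), or 0.18 without APOE3 replicate 5.

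The proteasome lid is the close relative of the COP9 signalosome, and its small acidic subunit Sem1 is the counterpart in size and charge of Cops9. Sem1 had 8707 ± 1624 normalised counts (SD, n = 8) in APOE2. In APOE3 replicates 1 to 5 it had 7438, 2497, 6678, 5193 and 9162. The APOE3 libraries thus ranged from below every APOE2 library to above the APOE2 median. For Sem1 the log2 fold change was 0.59, with an interval from 0.16 to 1.03 and a limma adjusted p of 0.202. Without APOE3 replicate 2 it was 0.30. After subtraction of genotype means the r of Sem1 with Cops9 was 0.065. The other 8 lid subunits had log2 fold changes between −0.26 (Psmd13, limma adjusted p = 0.354) and 0.24 (Psmd14, adjusted p = 0.510). With a library left out, Psmd13 ranged from −0.33 to −0.11 and Psmd14 from 0.057 to 0.34. Of 13 tested eIF3 subunits 7 were positive and 6 negative. Eif3d, the subunit that can bind the mRNA cap, had 1892 ± 234 and 2520 ± 374 normalised counts (SD), with −0.41 as the log2 fold change and a limma adjusted p of 0.0991. DESeq2 gave an adjusted p of 0.0260 (range over all alternatives 0.0260 to 0.662). Eif3h, an MPN subunit, was at −0.25 (limma adjusted p = 0.303).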

How the data were processed

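Each of 13 libraries was 1 column of a table that the authors deposited as normalised counts, a signal per gene. The submitters' processing notes name STAR 2.6.0, featureCounts, DESeq2 1.28.1 and the build mm10. The annotation and strand setting are not given in the sources used here. In every column 100% of the nonzero values were whole multiples of its smallest value (tolerance 0.001), and reads were recovered on that basis. For APOE2 replicate 2, whose smallest value is close to 1, a separate check could not certify this, and its recovered reads enter the edgeR and DESeq2 fits. GENCODE M21 (GRCm38) paired 22649 of 22656 identifiers with symbols, and gave positions, overlaps and lengths. RefSeq (GRCm38.p6) gave promoter windows.

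Genotypes were compared on log2(value + 1), a pseudocount of 1, with limma 3.58.1 in R 4.3.3 (intensity trend, two-sided, Benjamini-Hochberg over 12403 genes with a mean of at least 10, threshold 0.05). Fold changes are on that scale. Alternatives used edgeR 4.0.16 and DESeq2 1.42.0, other scalings, filters, covariates and left-out libraries. The limma step was tested on simulated data. Named genes are the 10 subunits, 5 genes most like Cops9 by each of 2 correlations, and the 2 genes of smallest p per related list. Of the genes most like Cops9, 1 is not reported here. Nedd8, Cul7, Cul2, Ddb1, Skp1a, Psmd14, Otos and Ndufa10 were named outside this rule, after their values were seen. Members and lists were chosen with earlier results of these data known. Read totals and intervals from reads cover counting error only.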

Additional observations from a re-analysis of the deposited data

Results flagged for a closer look

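Each subunit, the level of Cops9 relative to the others and the read total were screened in each genotype for a library that stood far from the rest for the range of its group. Of 24 screens, 6 found such a library, and about 1.2 would by chance alone if the screens were independent. They share libraries, so this comparison is a rough guide and not a test. In APOE2, replicate 1 had 13039989 recovered reads (next 9783625) and also stood apart in Cops9, with 15444 normalised counts (next 11957). Cops7b stood apart in APOE2 replicate 3 at 913 (next 615), and Cops3 in APOE2 replicate 4 at 1305 (next 975). In APOE3, Gps1 stood apart in replicate 5 at 50.9 (next 88.5) and Cops8 in replicate 2 at 748 (next 960.3). The 6 values fell on 5 libraries.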

How the results depend on the processing

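Under all 28 alternatives, 13 of which left out 1 library, 0 of the 9 subunits other than Cops9 were past the threshold, and the log2 fold change of Cops9 stayed positive, from 0.41 to 0.68. The number of subunits past the threshold, 1 in the reported fit, was 0 with no filter on low values, with the replicate block, without the limma trend, with the epithelial covariate, and with the length and GC trend removed, with or without the block. With a library left out it was 0 in 4 of 13 fits and 1 in the rest. Those 4 left out APOE2 replicate 2 or 5, or APOE3 replicate 3 or 5. The value of Cops9 relative to the mean of the other subunits ranged from 0.43 to 0.56 with a library left out, and was 0.35 with the length and GC trend removed, 0.36 with the replicate block added to that, and 0.67 with the epithelial covariate. The total of 98 genes (51 higher, 47 lower) became 9 (5 and 4) with no filter, 43 (17 and 26) with the replicate block, 37 (9 and 28) with that block and the length and GC correction, 311 (153 and 158) with DESeq2, and 0 (0 and 0) without the trend or with the epithelial covariate, where 1599 and 812 genes had an unadjusted p under 0.05. Lower genes were 73 with a pseudocount of 5 and 77 with edgeR. With a library left out the total ran from 9 (without APOE3 replicate 3) to 228 (without APOE3 replicate 1), with 5 to 131 higher and 4 to 97 lower. Related genes past the threshold were 2 with DESeq2 and 0 to 1 with a library left out. The sign turned for Cops4 with TMM (0.012), the replicate block (0.025), array weights (0.015) and 4 left-out libraries (range over all left-out libraries −0.091 to 0.048), and for Cops7b with equal totals (−0.011), the epithelial covariate (−0.077) and 2 left-out libraries (range −0.061 to 0.088). It also turned with the epithelial covariate for Cops6 (0.057), Cops7a (−0.14) and Cops8 (0.00072). The causes were not tested. The labels do not say that replicate numbers pair libraries, and deviations of the 5 same-numbered pairs correlated at −0.063 to 0.014, with 0 of 5 libraries closest to their own number. At 44 to 160 reads per library, depth limits Gps1 most.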
